A study of Mus musculus with 8 samples.

Results

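Osteolectin and the integrin that receives it were followed in mesenchymal stem cells sorted from mouse bone marrow by the leptin receptor (LEPR+) after lymphotoxin β receptor (LTβR) signalling had been blocked. The 3 genes are Clec11a, which encodes osteolectin, Itga11, which encodes the integrin α11 subunit, and Itgb1, which encodes the β1 subunit. They are 3 of the 52636 genes in the deposited count matrix and were found by gene symbol. They were selected on their names as ligand and receptor with the differences between LTβR-Ig and control libraries already known. For these 3 genes that contrast is therefore described by its values, with no p-value. Where calls are counted for them, the count stands beside the share over all genes and nothing is read from it.

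Osteolectin is a secreted glycoprotein of the C-type lectin family that promotes the differentiation of skeletal progenitors into osteoblasts. In bone marrow it is made by LEPR+ perivascular cells and by osteoblasts. Its receptor is integrin α11β1, which also binds fibrillar collagens, and binding is known to inhibit the kinase GSK3 and so to raise β-catenin signalling. The β1 subunit pairs with many α subunits, while α11 pairs with β1 alone.

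Bulk polyA RNA was sequenced in 8 libraries and counted per gene. The cells had been depleted of CD45+ and Ter119+ cells and sorted as live LEPR+ cells that lack CD45, Ter119, CD31 and CD144. The LTβR-Ig group came from C57BL/6 mice injected into a vein, once a week over 3 weeks, with 150 µg of LTβR-Ig, a soluble decoy receptor that captures the LTβR ligands. The control group came from C57BL/6 mice given HEL-Ig, an IgG1 against hen egg lysozyme, at that dose and on that schedule. Both groups were otherwise unmodified animals whose age and sex the labels do not give, and the injected decoy acts on the whole animal rather than on LEPR+ cells alone. There were 4 libraries per group. The labels do not say whether each came from a separate mouse, so the spread measured here is that between libraries and may be partly technical.

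Total counts lay between 52378101 and 61164510 in LTβR-Ig libraries and between 56466028 and 64403177 in control libraries. Lepr stood at 3159 to 4498 CPM in LTβR-Ig and at 4270 to 4372 CPM in control libraries, where CPM is the count scaled to library size with TMM factors. All 12 LEPR+ stromal markers passed the filter on low counts, and their summed level overlapped between the groups, at 31584 to 40730 CPM in LTβR-Ig and 29276 to 36718 CPM in control libraries. At an unadjusted edgeR p under 0.05, 0 of them were higher and 2 were lower, beside 3.39% and 2.93% of all genes tested. Kitl, which encodes stem cell factor, had 1106 to 1396 CPM in LTβR-Ig and 1682 to 1942 CPM in control libraries (log2 fold change -0.58, edgeR adjusted p = 0.125). Pdgfra, a mesenchymal receptor gene, had 293 to 389 CPM in LTβR-Ig and 407 to 461 CPM in control libraries (-0.29, edgeR adjusted p = 0.649). The part of these differences in the levels of Clec11a, Itga11 and Itgb1 was not tested. The 8 erythroid markers summed to 15711 to 36664 CPM in LTβR-Ig and 15644 to 48005 CPM in control libraries. The part of erythroid RNA in the levels of the 3 genes was not tested. The first principal component had LTβR-Ig replicate 2 at one extreme and control replicate 3 at the opposite one, and values without them are given where they bear on a result. In bulk libraries, a change in the share of cells that express a gene and a change in RNA per cell cannot be told apart.

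The 250 bases before the RefSeq start of each gene are shown because they lie directly upstream of the RefSeq transcripts of ligand and receptor. The RefSeq starts of Clec11a and Itga11 differ from those of the GENCODE annotation used for the gene coordinates. By the GENCODE coordinates, the Itga11 window runs into the annotated gene, and the Clec11a window ends short of its gene. Coordinates are on GRCm38.p6, chr7:44306960-44307209 on the minus strand for Clec11a, chr9:62677605-62677854 on the plus strand for Itga11 and chr8:128685404-128685653 on the plus strand for Itgb1. Capitals mark a GC box (GGGCGG) or a CCAAT box (CCAAT), each searched on both strands, and no match overlaps another.
Clec11a: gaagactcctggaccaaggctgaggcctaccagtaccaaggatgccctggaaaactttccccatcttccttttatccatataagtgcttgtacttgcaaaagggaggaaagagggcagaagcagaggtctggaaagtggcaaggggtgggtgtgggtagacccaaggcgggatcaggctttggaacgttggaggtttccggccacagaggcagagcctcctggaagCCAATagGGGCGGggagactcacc
Itga11: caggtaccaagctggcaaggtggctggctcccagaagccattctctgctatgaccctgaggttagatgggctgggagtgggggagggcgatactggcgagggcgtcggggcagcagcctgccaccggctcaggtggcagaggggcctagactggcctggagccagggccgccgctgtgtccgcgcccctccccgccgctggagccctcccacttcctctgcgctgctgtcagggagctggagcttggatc
Itgb1: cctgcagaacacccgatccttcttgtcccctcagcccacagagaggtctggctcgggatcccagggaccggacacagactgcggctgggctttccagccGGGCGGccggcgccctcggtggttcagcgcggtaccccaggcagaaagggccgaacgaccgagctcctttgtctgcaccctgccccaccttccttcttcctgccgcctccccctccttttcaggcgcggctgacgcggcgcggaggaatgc

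The Clec11a window held a CCAAT box that begins 24 bases before the start and a GC box that begins 17 bases before it. The Itgb1 window held a GC box 151 bases before the start, and the Itga11 window held neither motif. Over 32851 such RefSeq windows, 32.7% held a GC box and 33.8% a CCAAT box. The letters TATAAA (12.4% of windows), the RUNX letters TGTGGT (14%), the TCF/LEF letters CTTTGA (13.8%) and the κB consensus of NF-κB (7.25%), each on both strands, were not found in the 3 windows. Itgb1 had the window richest in CpG dinucleotides of the 3, with 21, against 12 for Itga11 and 4 for Clec11a, where the median over all windows was 6. The GC content was 55.6% for Clec11a, 68.4% for Itga11 and 68.0% for Itgb1.

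Clec11a (ENSMUSG00000004473.10, chromosome 7, 44302687 to 44306902 in mm10, minus strand) has 1 annotated transcript of 4 exons. Its level was 74.7, 90.5, 77.1 and 65.5 CPM in LTβR-Ig replicates 1 to 4, against 39.3, 42.7, 41.2 and 52 CPM in control replicates 1 to 4. Each LTβR-Ig library was above each control library, and the lowest LTβR-Ig library stood 1.26 times as high as the highest control library. The means were 76.9 ± 10.3 CPM in LTβR-Ig and 43.8 ± 5.65 CPM in control libraries (SD, n = 4 each), a 1.76-fold difference. The log2 fold change was 0.81 (SE 0.14). LTβR-Ig replicate 2 was the highest library and control replicate 4 the highest of its group. Leaving out LTβR-Ig replicate 2 gave a log2 fold change of 0.73. Leaving out control replicate 3 as well gave 0.70.

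Itgb1 (ENSMUSG00000025809.15, chromosome 8, 128685654 to 128733200 in mm10, plus strand) was the most abundant of the 3. Its level was 653, 743, 656 and 632 CPM in LTβR-Ig replicates 1 to 4, against 551, 548, 537 and 547 CPM in control replicates 1 to 4. The groups did not overlap, although the step between them was small, with the lowest LTβR-Ig library 1.15 times as high as the highest control library. The means were 671 ± 48.9 CPM in LTβR-Ig and 546 ± 6.19 CPM in control libraries (SD, n = 4 each), a ratio of 1.23 and a log2 fold change of 0.30 (SE 0.08). The control libraries lay within 1.03 times of each other, a narrower spread than the 1.17 times of the LTβR-Ig libraries. Without LTβR-Ig replicate 2, again the highest library, the log2 fold change was 0.25.

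Itga11 (ENSMUSG00000032243.8, chromosome 9, 62677826 to 62783982 in mm10, plus strand) is the subunit that gives the receptor its specificity. Its level was 105, 106, 85.3 and 94.8 CPM in LTβR-Ig replicates 1 to 4, against 72.5, 85.6, 83.0 and 103 CPM in control replicates 1 to 4. The groups overlapped, since control replicate 4 was above LTβR-Ig replicates 3 and 4. The means were 98.0 ± 9.97 CPM in LTβR-Ig and 86.0 ± 12.7 CPM in control libraries (SD, n = 4 each), and the fold change on the log2 scale was 0.19 (SE 0.14). This value moved to 0.29 without control replicate 4 and to 0.12 without control replicate 1. The annotation shows no other gene that overlaps any of the 3 genes.

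**Figure D1:**
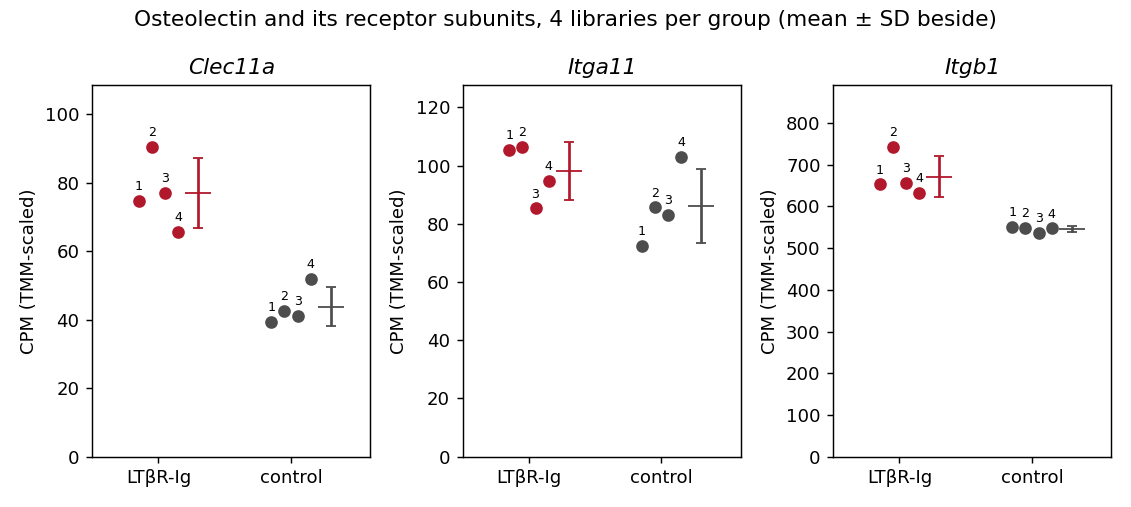
Level of Clec11a, Itga11 and Itgb1 in TMM-scaled CPM (vertical axes from 0) in each library of the LTβR-Ig and control groups, with replicate numbers above the points and the mean ± SD beside them. Clec11a lies between 65.5 and 90.5 CPM in LTβR-Ig and between 39.3 and 52 CPM in control libraries, Itgb1 is separated by a narrower step, and the Itga11 groups overlap.

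None of the 3 genes was among the genes called by edgeR's quasi-likelihood test at an adjusted p of 0.05, a call made for 0.0374% of the 16045 genes tested. An unadjusted edgeR p under 0.05 was met by 2 of the 3, beside 3.39% of all genes in the higher direction and 2.93% in the lower. Clec11a and Itgb1 belonged to the 2.36% of genes with every LTβR-Ig library above every control library, while 2.53% had every LTβR-Ig library below. DESeq2 called 1 of the 3, beside 1.24% of all genes, and limma-voom called 0, beside 0.106%. These counts describe genes picked with this contrast known and are no test of them.

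Levels were next set side by side per kilobase of annotated exon, a scale on which genes of unlike length can be compared. Clec11a stood at 25.8 ± 3.46 CPM per kb in LTβR-Ig and 14.7 ± 1.90 CPM per kb in control libraries (SD, n = 4 each), above 84.3% of 16019 genes by its mean over all libraries. Itga11 stood at 19.1 ± 1.94 and 16.8 ± 2.47 CPM per kb in LTβR-Ig and control libraries, above 82.7% of genes. Itgb1 stood at 164 ± 12.0 CPM per kb in LTβR-Ig and 134 ± 1.52 CPM per kb in control libraries, above 97.7% of genes. Transcripts of the shared β1 subunit per kb were thus many times as abundant as those of α11 in every library.

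Among genes named Clec, Clec11a had the highest mean level per kb over all 8 libraries of the 21 that passed the filter. It was followed by Clec4a3 at 16.7 ± 8.45 CPM per kb in LTβR-Ig and 16.6 ± 9.0 CPM per kb in control libraries (SD, n = 4 each), and by Clec4a1, Clec1b and Clec12a. In control libraries alone Clec11a, at 14.7 ± 1.90 CPM per kb, was below the means of Clec4a3 and of Clec4a1 (15.3 ± 8.42 CPM per kb). These differences did not exceed the spread between libraries. Several of these genes are lectins of myeloid cells or, for Clec1b, of platelets. Neutrophil markers summed to 4520 to 9007 CPM in LTβR-Ig and 3949 to 9347 CPM in control libraries, and macrophage markers to 4445 to 5877 CPM and 4307 to 5389 CPM. Most of the macrophage sum was Vcam1, which is also among the LEPR+ stromal markers. Vcam1 alone had 3982 to 5483 CPM in LTβR-Ig and 3848 to 5056 CPM in control libraries. The part of myeloid cells and platelets in the Clec levels was not tested.

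The α subunits that can pair with β1 decide which ligands the cells can bind. Itga11, Itga1 and Itga2b were the 3 α subunit genes with the highest level per kb, but their order depended on the length used. Per kb of all annotated exons, Itga11 came first, with Itga1 at 15.9 ± 1.85 CPM per kb in LTβR-Ig and 16.6 ± 0.16 CPM per kb in control libraries (SD, n = 4 each). Per kb of the principal transcript, Itga1 led with 27.0 ± 3.14 CPM per kb in LTβR-Ig and 28.2 ± 0.27 CPM per kb in control libraries, and Itga11 followed Itga2b at 19.7 ± 2.01 and 17.3 ± 2.56 CPM per kb. Itga1 encodes the α subunit of another collagen-binding integrin. The remaining collagen-binding subunits were scarce, with Itga2 at 1.24 ± 1.00 and Itga10 at 0.28 ± 0.09 CPM per kb of exon in LTβR-Ig libraries and at 1.15 ± 0.87 and 0.31 ± 0.33 CPM per kb in control libraries.

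Itga2b encodes the αIIb subunit of the platelet fibrinogen receptor, which pairs with β3 rather than β1. It is also a marker of megakaryocytes. Itga2b was at 46.0, 93.6, 164 and 89.2 CPM in LTβR-Ig replicates 1 to 4, against 24.2, 43.5, 73.4 and 128 CPM in control replicates 1 to 4. The 8 megakaryocyte markers, of which Itga2b is one member, summed to 835 to 3413 CPM in LTβR-Ig and 553 to 2404 CPM in control libraries, with LTβR-Ig replicate 3 and control replicate 4 highest in their groups. Itgb3, its partner, had 162 ± 68.9 CPM in LTβR-Ig and 103 ± 64.7 CPM in control libraries (SD, n = 4 each). Without LTβR-Ig replicate 3 the log2 fold change of Clec11a was 0.82 and that of Itgb1 0.32. Over the omission of each library in turn it lay between 0.73 and 0.91 for Clec11a and between 0.25 and 0.33 for Itgb1. For Itga11 that range was 0.12 to 0.29. The part of megakaryocytes in the levels of Clec11a, Itga11 and Itgb1 was not tested.

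The other integrin subunit genes were tested in the fit over all genes. Of 17 other α subunits 15 were tested, and of 7 other β subunits 5. None passed an adjusted p of 0.05 by edgeR. At an unadjusted p under 0.05, 1 α subunit was higher, Itga9, and no subunit was lower, beside 3.39% and 2.93% of all genes tested. These subunits and the lists below were chosen with earlier results of these data known. DESeq2 also called Itga9 alone of these 20 genes, and limma-voom called none, beside 1.24% and 0.106% of all genes tested. Itga7, Itgae, Itgb6 and Itgb8 did not pass the count filter. Itgb8 had 1.49 and 2.08 CPM in control replicates 1 and 2 and was at 0 in the remaining libraries. Itgb6 was at 0 in all 8 libraries, which allows a level of up to 3 counts per library.

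Itga9 encodes the α9 subunit, which pairs with β1 in a receptor for tenascin C, osteopontin and VCAM1. It had 45.8, 59.1, 51.5 and 47.8 CPM in LTβR-Ig replicates 1 to 4, against 27.0, 26.7, 24.5 and 29.3 CPM in control replicates 1 to 4. The groups were apart, with 4 of 4 LTβR-Ig libraries above all controls. The log2 fold change was 0.93 (SE 0.14, edgeR adjusted p = 0.084), so the difference did not pass over all genes by edgeR, while DESeq2 gave an adjusted p of 4.23e-06 and limma-voom one of 0.0711.

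The remaining β1 partners overlapped between the groups, and none had an unadjusted edgeR p under 0.05. Itga1 had a log2 fold change of -0.06 (SE 0.10), Itga5, the fibronectin receptor subunit, -0.06 (SE 0.28), and Itga4, a subunit of the VCAM1 receptor, -0.09 (SE 0.27). Itga3 and Itga6, laminin receptor subunits, had 0.30 (SE 0.32) and 0.61 (SE 0.47). Itgav had 0.50 (SE 0.30), Itga8 -0.28 (SE 0.24), Itga2 0.11 (SE 0.93) and Itga10 -0.18 (SE 0.79). Among β subunits, Itgb5 had 0.41 (SE 0.26), Itgb3 0.66 (SE 0.48), Itgb7 -0.14 (SE 0.51) and the scarce Itgb4 -1.02 (SE 1.32). The leukocyte subunit genes Itgb2 (0.07, SE 0.24), Itgam (-0.03, SE 0.40), Itgal (0.27, SE 0.36), Itgad (0.33, SE 0.57) and Itgax (0.57, SE 2.00) overlapped between the groups, each with an edgeR adjusted p above 0.9. The median log2 fold change was 0.27 over the 15 α subunits and 0.07 over the 5 β subunits, against 0.00 over all genes tested. Without LTβR-Ig replicate 3 these medians were 0.02 and -0.18, and without control replicate 1 they were 0.03 and 0.07. Over the omission of each library in turn, the α subunit median lay between 0.02 and 0.43 and the β subunit median between -0.18 and 0.35.

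**Figure D2:**
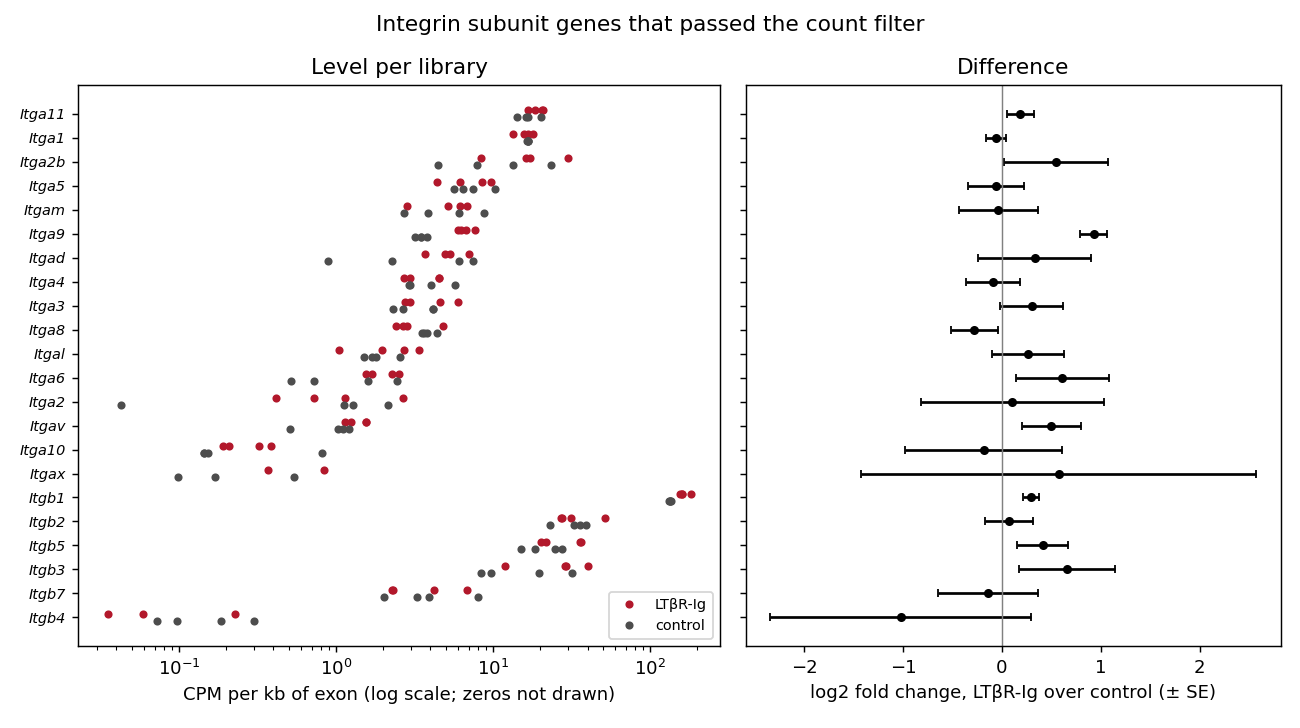
Integrin subunit genes that passed the count filter, α subunits above β subunits, each in order of level. Left, CPM per kb of annotated exon on a log axis, with a point per library and LTβR-Ig drawn above control and zeros not drawn; right, log2 fold change of LTβR-Ig over control with its SE. Itgb1 lies above 130 CPM per kb in all libraries, Itga11 and Itga1 overlap near 17 CPM per kb, and Itga9 has the highest log2 fold change, at 0.93.

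The genes whose pattern over the 8 libraries was most like that of Clec11a were looked up among 11807 genes, by the root mean square difference between log2 CPM values centred on each gene's mean. Itga9 was the closest, with a difference of 0.11 on the log2 scale, where the median gene had 0.56. Next came Ubtd1 (0.12), Tmsb10, which encodes an actin-binding thymosin (0.13), and Syncrip, which encodes an RNA-binding protein (0.15). Itgb1 and Itga11 differed from Clec11a by 0.28 and 0.33, and from each other by 0.16. Closest to Itgb1 were Cdc42ep1, an effector of the GTPase CDC42 (0.06), Tmem183a (0.07), Emp3 (0.07) and the kinase gene Akt1 (0.07). Closest to Itga11 were Hacd2 (0.06), Sppl3, Vapa and Chst2 (each 0.08 or 0.09). All likenesses rest on the same 8 libraries and partly on the group difference itself.

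Syncrip had 137 ± 9.41 CPM in LTβR-Ig and 81.3 ± 10.9 CPM in control libraries (SD, n = 4 each). The log2 fold change was 0.76, at an edgeR adjusted p of 0.0946. Tmsb10 had 386 ± 58.4 CPM in LTβR-Ig and 240 ± 27.2 CPM in control libraries. Its log2 fold change was 0.69 and its edgeR adjusted p 0.171. Neither passed by edgeR, and DESeq2 called both, with adjusted p of 8.31e-05 and 0.00235.

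Proteins that link integrins to actin and to kinases were described as a list of 36 genes, of which 35 were tested. None passed an adjusted p of 0.05 by edgeR. At an unadjusted p under 0.05, 3 were higher and 0 lower, beside 3.39% and 2.93% of all genes tested. The log2 fold change was above 0 for 28 genes and below 0 for 7, where 49.7% of all genes tested were above 0. These counts were 24 and 11 without LTβR-Ig replicate 3, and 29 and 6 without LTβR-Ig replicate 1. The median log2 fold change was 0.17. It was 0.29 without LTβR-Ig replicate 1 or control replicate 4, and 0.11 without control replicate 1. Actn4, which encodes an actin crosslinker of adhesion sites, had 243, 296, 262 and 240 CPM in LTβR-Ig replicates 1 to 4, against 153, 184, 192 and 195 CPM in control replicates 1 to 4. Its log2 fold change was 0.53 (SE 0.11, edgeR adjusted p = 0.226), and DESeq2 called it (adjusted p = 0.0192). Tns2, a tensin that binds β integrin tails, had 0.48 (SE 0.13), Ptk2, the gene of focal adhesion kinase, 0.45 (SE 0.17), and Lims1, the gene of the adaptor PINCH1, 0.35 (SE 0.16). For Actn4, Tns2 and Ptk2 every LTβR-Ig library was above every control library, beside 2.36% of all genes tested. Their edgeR adjusted p-values lay between 0.226 and 0.681.

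Downstream of osteolectin, the list of PI3K, GSK3 and β-catenin components held 23 genes, all tested. None was called. At an unadjusted edgeR p under 0.05 there were 3 higher genes and 0 lower, beside 3.39% and 2.93% of all genes tested. The median log2 fold change was 0.14, and 0.09 when LTβR-Ig replicate 4 was omitted. Akt1, the kinase that phosphorylates GSK3, had 102 ± 11.3 CPM in LTβR-Ig and 85.5 ± 3.37 CPM in control libraries (SD, n = 4 each), and a log2 fold change of 0.26 (edgeR adjusted p = 0.76). Dvl2, a Dishevelled adaptor, had 0.51 (edgeR adjusted p = 0.766), and Lrp5, a Wnt co-receptor, 0.91 (edgeR adjusted p = 0.856). Tcf7l1, a TCF factor that mostly represses, had 40.4, 42.7, 39.4 and 44.5 CPM in LTβR-Ig replicates 1 to 4, against 7.6, 32.6, 8.2 and 27.8 CPM in control replicates 1 to 4. Its control libraries were widely spread, and its log2 fold change of 1.13 (SE 0.47) had an edgeR adjusted p of 0.751.

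Direct Wnt target genes gave no call. Of 17 listed, 15 were tested, with none at an unadjusted edgeR p under 0.05 in either direction, and neither DESeq2 nor limma-voom called any. The smallest p-values belonged to Ccn4 (log2 fold change 0.66, SE 0.40), the Wnt inhibitor gene Nkd2 (0.50, SE 0.31), Znrf3, which encodes a ligase that removes Wnt receptors (0.22, SE 0.18), and Tcf7 (-0.50, SE 0.43), each with overlapping groups and an edgeR adjusted p above 0.9. The median log2 fold change was 0.15 with edgeR, 0.30 without control replicate 4, -0.02 with limma-voom and -0.14 over the 7 genes of a stricter count filter.

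Osteoblast genes, whose transcription osteolectin is known to raise, were listed with 18 members, all tested. None passed over all genes by edgeR. At an unadjusted p under 0.05 there were 4 higher genes and 0 lower, beside 3.39% and 2.93% of all genes tested. The log2 fold change was above 0 for 16 genes and below 0 for 2, where 49.7% of all genes tested were above 0. These counts depended on single libraries. They were 12 and 6 without LTβR-Ig replicate 3, and 18 and 0 without LTβR-Ig replicate 1. The median log2 fold change was 0.37. Omitting LTβR-Ig replicate 3 gave 0.25 and omitting control replicate 4 gave 0.77. Alpl, the bone alkaline phosphatase gene, had 544, 470, 662 and 459 CPM in LTβR-Ig replicates 1 to 4, against 201, 249, 272 and 382 CPM in control replicates 1 to 4. The groups were apart, with control replicate 4 nearest to the LTβR-Ig libraries, and DESeq2 called the difference (log2 fold change 0.95, SE 0.20, edgeR adjusted p = 0.223, DESeq2 adjusted p = 0.00226). Sp7, which encodes the osteoblast factor osterix, had 36.0, 33.5, 50.3 and 26.1 CPM in LTβR-Ig replicates 1 to 4, against 15.6, 17.2, 14.4 and 28.5 CPM in control replicates 1 to 4. Control replicate 4 was above LTβR-Ig replicate 4, so these groups overlapped (log2 fold change 0.95, SE 0.28, edgeR adjusted p = 0.478). Atf4 (0.30) and Phex (0.34) were the other 2 genes at an unadjusted p under 0.05. Runx2 and Ibsp were the 2 genes below 0, with Runx2 at -0.39 (SE 0.72). Neither was below 0 without LTβR-Ig replicate 1. Runx2 had 7.0, 172, 120 and 203 CPM in LTβR-Ig replicates 1 to 4, against 153, 137, 180 and 189 CPM in control replicates 1 to 4. Earlier results of these data had already shown Alpl and Sp7 in this direction, so they add no independent support.

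The summed markers of mature osteoblasts overlapped between the groups. The 6 markers summed to 8078 to 16331 CPM in LTβR-Ig and 9842 to 18528 CPM in control libraries, with a ratio of means of 0.983, and most of the sum was Ibsp (log2 fold change -0.07). The other 5 markers had values above 0, which were 0.91 for Dmp1, 0.45 for Bglap, 0.43 for Bglap2, 0.36 for Ifitm5 and 0.34 for Phex, and the median of the 6 was 0.40. Of these 6 only Phex had an unadjusted edgeR p under 0.05 (adjusted p = 0.649), and each of the 6 overlapped between the groups. Bglap, the osteocalcin gene, was at 255, 380, 1702 and 653 CPM in LTβR-Ig replicates 1 to 4, against 172, 204, 588 and 1217 CPM in control replicates 1 to 4, so that LTβR-Ig replicate 3 and control replicate 4 were its highest libraries. Clec11a was at 77.1 CPM in the first of these libraries and 52 CPM in the other. Within its groups Clec11a was highest in LTβR-Ig replicate 2 and control replicate 4, and its groups did not overlap. Markers of chondrocytes (40.3 to 177 CPM in LTβR-Ig and 23.0 to 111 CPM in control libraries) and of tendon or periosteal fibroblasts (7.0 to 22.2 CPM and 7.4 to 28.1 CPM) were low in sum. Most of the tendon sum was Mkx, which overlapped, and Scx and Kera were at 0 in all libraries. Tnmd, the tenomodulin gene, had 0.26, 0.40, 0.86 and 0.84 CPM in LTβR-Ig replicates 1 to 4 and was at 0 in all 4 control libraries (edgeR adjusted p = 0.194). Dpt, the dermatopontin gene, had 0.13, 0.83, 0.81 and 0.91 CPM in LTβR-Ig replicates 1 to 4, was at 0 in all 4 control libraries and did not pass the count filter. Both thus separated the groups, at levels under 1 CPM. Smooth muscle and pericyte markers summed to 11.7 to 69.0 CPM in LTβR-Ig and 14.8 to 27.2 CPM in control libraries, with Cnn1 at 0 throughout. Endothelial markers summed to 21.3 to 220 CPM and 37.3 to 104 CPM, with the highest sum in LTβR-Ig replicate 3. The part of these cells in the levels of the 3 genes was not tested.

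**Figure D3:**
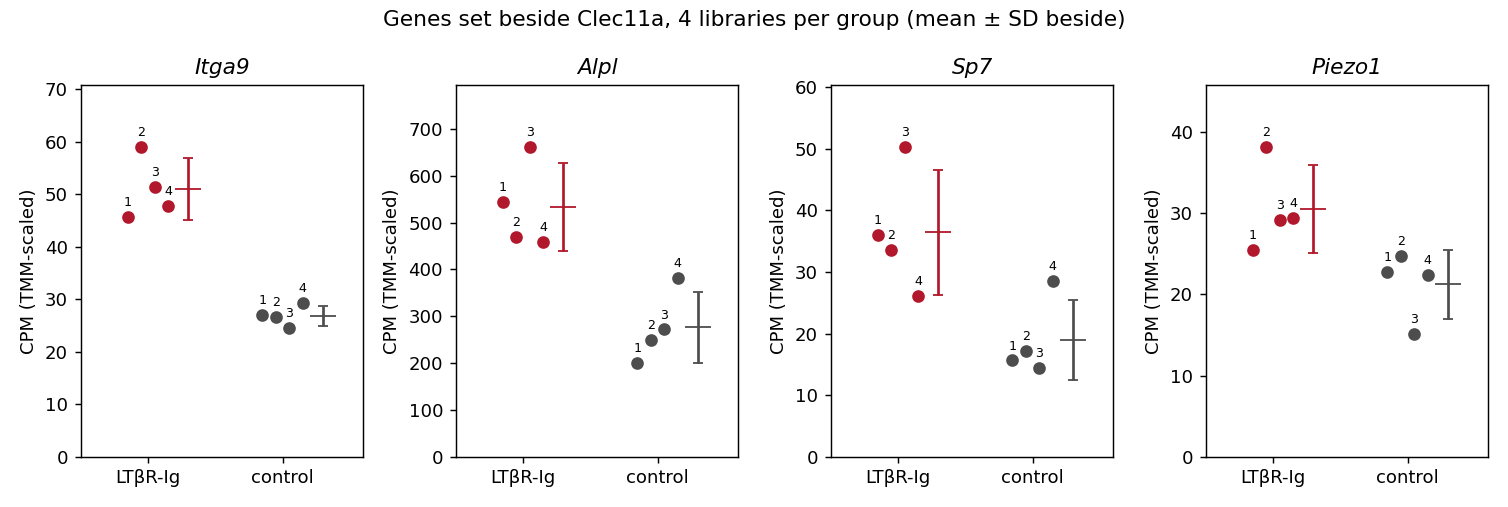
Level of Itga9, Alpl, Sp7 and Piezo1 in TMM-scaled CPM (vertical axes from 0) in each library of the LTβR-Ig and control groups, with replicate numbers above the points and the mean ± SD beside them. The groups are apart for Itga9, Alpl and Piezo1 and overlap for Sp7, where control replicate 4 at 28.5 CPM is above LTβR-Ig replicate 4 at 26.1 CPM.

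Fibrillar collagens are the other ligands of α11β1. All 11 genes listed were tested, and none was called. At an unadjusted edgeR p under 0.05 there were 2 higher genes and 0 lower, beside 3.39% and 2.93% of all genes tested. The median log2 fold change was 0.39. Col3a1 had 276 ± 27.6 CPM in LTβR-Ig and 202 ± 20.1 CPM in control libraries (SD, n = 4 each). The log2 fold change was 0.45, at an edgeR adjusted p of 0.34. Col5a2 had 0.46 (edgeR adjusted p = 0.788), Col5a3 0.27 and Col27a1 0.22, with overlapping groups for each. Omitting LTβR-Ig replicate 4 left 0.0051 for Col5a3, and omitting LTβR-Ig replicate 2 left 0.024 for Col27a1. The median of the list was 0.04 when LTβR-Ig replicate 3 was omitted, 0.16 when control replicate 1 was and 0.18 when control replicate 2 was.

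LEPR+ cells that make osteolectin are known to lie around arterioles and to sense movement through the ion channel PIEZO1. Piezo1 had 25.4, 38.2, 29.2 and 29.4 CPM in LTβR-Ig replicates 1 to 4, against 22.8, 24.7, 15.1 and 22.4 CPM in control replicates 1 to 4. The groups did not overlap, but the step between the nearest libraries was small, and the log2 fold change of 0.52 (SE 0.21) had an edgeR adjusted p of 0.731. Trpv4, another mechanosensitive channel gene, was scarce, with 6.8, 3.0, 2.7 and 3.6 CPM in LTβR-Ig replicates 1 to 4, against 1.2, 0.4, 0.1 and 0.4 CPM in control replicates 1 to 4. Its log2 fold change was 2.91 (SE 0.75, edgeR adjusted p = 0.366), and DESeq2 called it (adjusted p = 0.00806). For the YAP target Ccn1 the log2 fold change was 1.17 (SE 0.45, edgeR adjusted p = 0.681). LTβR-Ig replicates 2 and 4 stood at 257 and 357 CPM, while replicates 1 and 3, at 92.9 and 80.4 CPM, lay within the 76.4 to 93.4 CPM of the controls. Of the 14 genes of this list 13 were tested, and none was called by edgeR. At an unadjusted p under 0.05 there were 3 higher genes and 0 lower, beside 3.39% and 2.93% of all genes tested. The median was 0.19 with edgeR and -0.11 with limma-voom. Omitting LTβR-Ig replicate 1 gave 0.05, omitting LTβR-Ig replicate 4 gave 0.08 and omitting control replicate 4 gave 0.39.

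Of the 32 other genes named Clec, 20 were tested. None passed by edgeR, DESeq2 or limma-voom. At an unadjusted edgeR p under 0.05 there was 1 higher gene and 0 lower, beside 3.39% and 2.93% of all genes tested. The median log2 fold change was 0.18, but -0.11 without LTβR-Ig replicate 3 and -0.05 without control replicate 1. The gene higher was Clec5a, a myeloid receptor gene, with 19.5 ± 2.10 CPM in LTβR-Ig and 12.5 ± 3.98 CPM in control libraries (SD, n = 4 each), a log2 fold change of 0.64 and an edgeR adjusted p of 0.711. Clec14a, an endothelial gene, had 0.47 (edgeR adjusted p = 0.947). Clec4b2 and Clec2f, both with means under 3 CPM, had -1.0 (SE 0.73) and 2.27 (SE 1.76). Clec4b2 stood at -0.081 once control replicate 4 was omitted. Control replicate 2 was the only control library with counts of Clec2f, so its fold change rests on that library.

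Over the 153 genes tested in these 9 lists together, no gene passed an adjusted p of 0.05 by edgeR, beside 0.0374% of all genes. DESeq2 called 4, Itga9, Actn4, Alpl and Trpv4, beside 1.24% of all genes tested. At an unadjusted edgeR p under 0.05, 17 genes or 11.1% were higher and 0 were lower, beside 3.39% and 2.93% of all genes tested. Every LTβR-Ig library was above every control library for 13 of the 153 genes, or 8.50%, and below for 0, beside 2.36% above and 2.53% below over all genes tested. The log2 fold change was above 0 for 111 genes and below 0 for 42, with a median of 0.22, where 49.7% of all genes tested were above 0. The lists overlap slightly and were chosen with earlier results known.

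**Figure D4:**
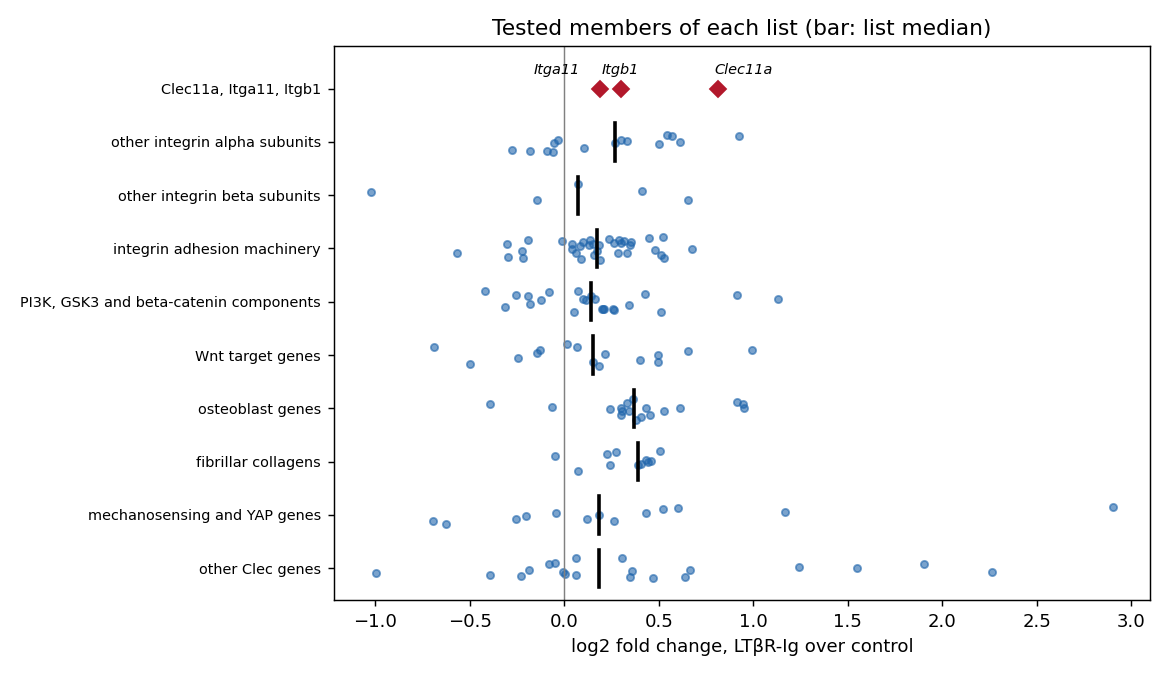
Log2 fold change of LTβR-Ig over control for the tested genes of each list (points, spread vertically at random) with the list median (bar), and for Clec11a, Itga11 and Itgb1 (diamonds, top row). Clec11a lies at 0.81, above Itgb1 at 0.30 and Itga11 at 0.19, and the list medians lie between 0.07 and 0.39.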

How the data were processed

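Bulk polyA RNA from sorted LEPR+ cells was sequenced as paired reads of 76 bases. The authors deposited 1 matrix of raw counts per gene for 8 libraries, with no normalization. Per the submitters' processing notes, HISAT2 and HTSeq were used with mm10. Tool versions, the annotation release and whether counting used strand: not given in the sources used here. Groups and replicate numbers came from the sample titles.

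Gene symbols, coordinates and exon lengths came from GENCODE M21 on GRCm38 (mm10), with 52403 of 52636 IDs matched without the version suffix. Upstream windows came from RefSeq on GRCm38.p6. No 2 libraries of a group agreed within counting noise (chi-square per degree of freedom of at least 139.8).

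Counts were tested with edgeR 4.0.16 in R 4.3.3 (TMM scaling, filterByExpr by group with a minimum count of 10 and a minimum total of 15, robust glmQLFit, glmQLFTest, no covariate). Benjamini-Hochberg adjustment ran over the 16045 genes tested, and 0.05 was the threshold. The SE is the size of the log2 fold change over the square root of F. The test was checked on simulated counts. DESeq2 1.42.0 and limma 3.58.1 (voom with sample quality weights) were run on the same genes. The likeness measure used log2(CPM + 0.5) and was limited to genes of mean log2 CPM 1 or above, predicted loci left out.

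The 3 genes, the gene lists and the marker lists were chosen with earlier results of these data known. Named were the 3 genes, all other tested integrin subunits, up to 4 members of each other list with the smallest p, and the 4 genes most like each of the 3. Cell type markers and Runx2, named beside these, fall outside that rule. Alternatives were other scalings, tools and filters, a replicate block, and the omission of each library. The omission of both libraries that are extreme on the first principal component was added after seeing the data.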

Additional observations from a re-analysis of the deposited data

Results flagged for a closer look

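In each group of 4 libraries, a named gene stood apart when the gap between its highest or lowest library and the nearest other took most of the group's range, a pattern expected by chance in roughly 1 of 20 groups. It was met 5 times over 122 combinations of gene and group, and never by Clec11a, Itga11 or Itgb1. LTβR-Ig replicate 2 had 91.1 CPM of Tns2, and the other LTβR-Ig libraries had 68.9 to 71.9 CPM. The same library had 159 CPM of Cdc42ep1, and the others of its group 129 to 132 CPM. LTβR-Ig replicate 3 had 157 CPM of Itgb2, and the others of its group 82.9 to 95.3 CPM. Control replicate 4 had 4.23 CPM of Itga10, and the other controls 0.75 to 0.80 CPM. Clec2f was at 0.641 CPM in control replicate 2 and at 0 in the other control libraries.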

How the results depend on the processing

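The log2 fold changes of Clec11a, Itga11 and Itgb1 moved by less than the replicate SD in all 48 values over 16 alternatives. Omitting 1 of 4 libraries can hardly move a mean by that much, so this count says little about stability. Leaving out each library in turn gave 0.73 to 0.91 for Clec11a, 0.12 to 0.29 for Itga11 and 0.25 to 0.33 for Itgb1. The number of the 3 genes past the threshold was 1 with DESeq2 and 0 in all other settings, and of the 153 list genes 4 passed with DESeq2 and 0 elsewhere. Over all genes, 6 passed with edgeR as described, 199 with DESeq2, 17 with limma-voom, 22 with the filter of at least 10 counts in 4 libraries and a mean of 5 CPM, 2 to 9 without each library and 1 without both libraries that are extreme on the first principal component. The cause of these differences between tools was not tested.

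With the replicate number as a block 1 gene passed. The submitters describe 4 pairs, without saying what a pair shares or whether the replicate numbers mark them. The data did not settle whether the numbers do. Same-numbered libraries had correlations of deviations between 0.00 and 0.07, and unlike-numbered ones between -0.09 and 0.08. Not every library was closest to its own number. Clec11a, Itga11 and Itgb1 had 0.81, 0.19 and 0.30 under the block.

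Of the 58 other named genes, 12 changed sign in at least 1 setting, none of them past the threshold in any setting. With limma-voom and the replicate block, Itga10 had 0.27 and 0.32, Itgam 0.12 and 0.031 and Itgax -0.83 and -0.52. Without both extreme libraries, Itga3 had -0.045, Itgam 0.044, Itgb7 0.54 and Col27a1 -0.082. Leaving out each library gave -0.12 to 0.018 for Itga1, -0.59 to 0.60 for Itga2, -0.20 to 0.15 for Itga4, -0.23 to 0.14 for Itga5, -0.42 to 0.91 for Itga10, -0.0055 to 0.77 for Itgad, -0.25 to 0.31 for Itgam, -0.72 to 1.75 for Itgax, -0.18 to 0.18 for Itgb2 and -0.56 to 0.35 for Itgb7. Itga10, Itgax, Itgb4 and Clec2f, with means under about 3 CPM, varied widely between libraries. The cause of this spread was not tested.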
